A study of Mus musculus with 31 samples.

Results

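Hotspots of meiotic double-strand breaks in testis of the PWDfXB6m hybrid were set against those of a Prdm9 knockout, to find which of the sites cut without PRDM9 the hybrid also uses. Members were all hotspots on autosomes 1 to 19 in both lists, and a knockout site was called used when a hybrid hotspot had its centre under 400 bp away. The hybrid list held 16759 autosomal hotspots and the knockout list 29991 autosomal sites, out of 414683 hotspots in 26 lists of the series. By this rule PWDfXB6m used 993 of the 29991 knockout sites (3.31%, exact 95% interval 3.11 to 3.52), and these were 5.93% of its own hotspots. Use was concentrated at the strongest knockout sites, where most lay at gene starts and most were among the weakest of the hybrid list.

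PWDfXB6m is the F1 of a PWD/PhJ mother and a C57Bl/6J father. The reference crosses were B6fXPWDm, with a C57Bl/6J mother and a PWD/PhJ father, and PWDfXC3Hm, with a PWD/PhJ mother and a C3H/HeJ father. The inbred parents were PWD (PWD/PhJ) and B6 (C57Bl/6J). The knockout is homozygous Prdm9-/-, with both parents of the line B6;129P2-Prdm9<tm1Ymat>/J, so its background is B6 with a 129P2 part. All were assayed on testis by DMC1 SSDS, in which the recombinase DMC1 is precipitated and the single strands it coats after resection of the breaks are sequenced. The sources used here do not give the number or age of the animals. Each genotype had 1 library, so no difference below has a replicate check and none was tested. Intervals given for shares are exact Clopper-Pearson intervals that cover counting error only, and the read depth is unknown.

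PRDM9 is a histone methyltransferase whose zinc-finger array binds DNA and places most meiotic breaks in mice away from gene starts. Mice without it still make breaks, mainly at promoters and other sites already marked by histone H3 lysine 4 trimethylation, and their spermatocytes arrest in meiotic prophase. PWD and B6 carry different Prdm9 alleles, and each allele binds its own set of sequences. Males of the PWD by B6 cross are known for sterility with failed pairing of homologous chromosomes, while the reciprocal males are less affected.

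Part of the hybrid list lay at hotspots of its parent strains. Of its 16759 hotspots, 6076 (36.3%) lay at a PWD hotspot only, 5177 (30.9%) at a B6 hotspot only, 156 (0.931%) at a hotspot of both and 5350 (31.9%) at a hotspot of neither parent.

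The promoters of 5 of the strongest used sites are shown because most sites of high knockout strength, used or not, lay at gene starts. Each sequence runs 5′ to 3′ on the strand of its gene over 250 bases before and 50 bases after the start, from RefSeq on GRCm38.p6, with CpG dinucleotides in capitals.
Rsbn1l, chr5:20951773-20952072, minus strand: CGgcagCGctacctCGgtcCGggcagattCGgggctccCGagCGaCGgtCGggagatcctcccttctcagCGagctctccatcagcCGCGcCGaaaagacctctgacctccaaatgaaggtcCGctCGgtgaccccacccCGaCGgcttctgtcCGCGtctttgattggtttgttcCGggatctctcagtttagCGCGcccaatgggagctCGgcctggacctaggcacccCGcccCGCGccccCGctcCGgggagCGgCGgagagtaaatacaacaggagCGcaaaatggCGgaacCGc
Snx13, chr12:35046939-35047238, plus strand: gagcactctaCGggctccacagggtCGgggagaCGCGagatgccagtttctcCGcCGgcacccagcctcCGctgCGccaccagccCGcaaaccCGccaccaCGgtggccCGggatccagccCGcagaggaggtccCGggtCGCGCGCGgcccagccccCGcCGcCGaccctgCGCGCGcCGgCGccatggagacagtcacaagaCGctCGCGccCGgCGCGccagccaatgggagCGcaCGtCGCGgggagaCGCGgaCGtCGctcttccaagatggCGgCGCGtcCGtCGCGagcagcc
Cenpl, chr1:161070517-161070816, plus strand: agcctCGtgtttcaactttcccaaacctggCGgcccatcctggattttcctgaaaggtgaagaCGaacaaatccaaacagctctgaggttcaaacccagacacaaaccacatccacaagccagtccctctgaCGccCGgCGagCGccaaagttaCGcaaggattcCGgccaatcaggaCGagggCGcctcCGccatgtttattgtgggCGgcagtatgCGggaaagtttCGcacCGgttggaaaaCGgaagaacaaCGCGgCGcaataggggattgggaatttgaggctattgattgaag
Nudcd2, chr11:40733411-40733710, plus strand: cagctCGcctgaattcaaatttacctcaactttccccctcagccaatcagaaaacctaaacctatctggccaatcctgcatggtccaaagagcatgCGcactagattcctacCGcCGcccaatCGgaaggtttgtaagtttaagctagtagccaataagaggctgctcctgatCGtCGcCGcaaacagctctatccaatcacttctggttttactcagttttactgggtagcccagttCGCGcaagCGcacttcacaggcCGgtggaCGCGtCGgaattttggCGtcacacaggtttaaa
Kbtbd8, chr6:95117630-95117929, plus strand: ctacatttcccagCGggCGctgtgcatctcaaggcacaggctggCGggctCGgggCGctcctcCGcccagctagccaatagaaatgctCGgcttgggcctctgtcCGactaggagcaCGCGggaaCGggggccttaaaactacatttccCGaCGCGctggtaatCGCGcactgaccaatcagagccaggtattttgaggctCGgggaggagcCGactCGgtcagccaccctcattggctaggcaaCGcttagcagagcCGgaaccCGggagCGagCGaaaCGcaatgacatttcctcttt

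These 5 promoters held 16 to 46 CpG dinucleotides in 300 bases. The Snx13 promoter held the most, with 46 CpGs and 75% G+C. The Nudcd2 promoter held the fewest, with 16 CpGs and 50% G+C. The median over all 20085 promoters of the table was 14 CpGs. The Sp1 box GGGCGG, on either strand, was found in all but the Snx13 window, and the CCAAT box in all 5. The Slc35d1 promoter, at the used site of knockout rank 11, is not printed. It held 29 CpGs, 75.3% G+C and the Sp1 box but no CCAAT box. The TATA box TATAAA was found in none of the 5 printed windows.

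Use followed strength in the knockout. Among the 2999 strongest knockout sites, the strongest 10% and called strong here, PWDfXB6m used 714 (23.8%, interval 22.3 to 25.4). Among the other 26992 sites it used 279 (1.03%, interval 0.916 to 1.16). Of the 10 strongest knockout sites the hybrid used 9, and of the 100 strongest it used 80. Use was 55.3% over ranks 101 to 500, 31.8% over ranks 501 to 1000, 18.2% over ranks 1001 to 2000 and 7.2% over ranks 2001 to 3000. In steps of 10% of the knockout list, use was 2.70% in the step below the strongest and at most 1.07% in each of the 8 weaker steps. The used sites were 3.31% of all knockout sites in number but held 10.8% of the summed knockout strength.

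**Figure D1:**
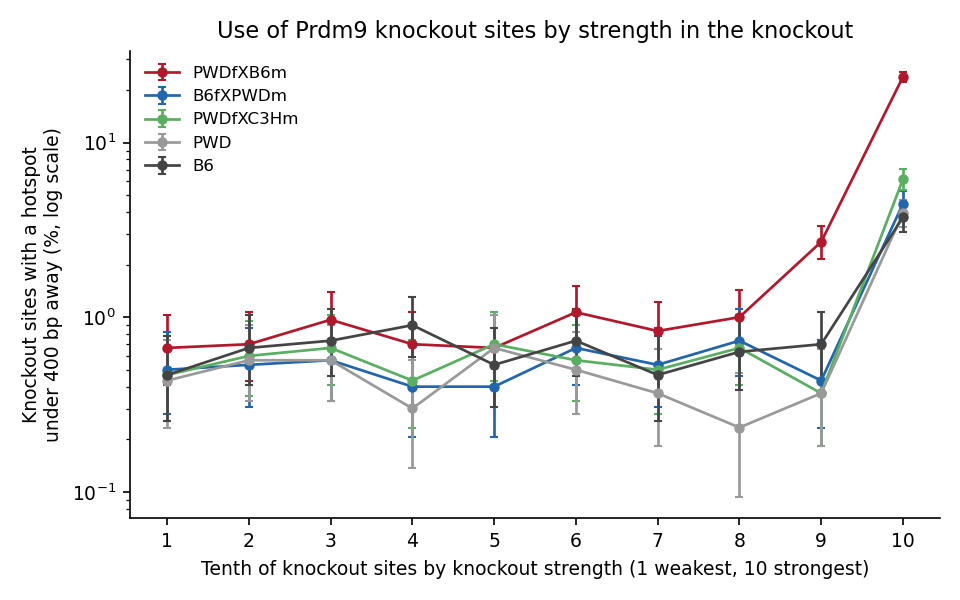
Share of knockout sites with a hotspot under 400 bp away (%, log axis), in steps of 10% of knockout strength, for PWDfXB6m, the crosses B6fXPWDm and PWDfXC3Hm and the parents PWD and B6. Bars are exact 95% intervals for counting error. PWDfXB6m reached 23.8% in the strongest step, against 4.47% in B6fXPWDm and 6.17% in PWDfXC3Hm.

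The other lists used fewer knockout sites at their deposited lengths. B6fXPWDm used 277 (0.924%), PWDfXC3Hm 334 (1.11%), PWD 238 (0.794%) and B6 287 (0.957%). Among the strongest 10% the counts were 134 (4.47%) in B6fXPWDm, 185 (6.17%) in PWDfXC3Hm, 118 (3.93%) in PWD and 112 (3.73%) in B6. At the 100 strongest sites, 80 were used in PWDfXB6m, 36 in B6fXPWDm, 39 in PWDfXC3Hm, 38 in PWD and 39 in B6. The lists differ in length and the weak end of each list depends on its unknown depth. With every list kept to its strongest 12918 hotspots, the length of B6fXPWDm, the share of the strongest 10% was 5.80% in PWDfXB6m (interval 4.99 to 6.70), 4.47% in B6fXPWDm (3.76 to 5.27), 1.53% in PWDfXC3Hm, 2.97% in PWD and 0.467% in B6. At this length the intervals of PWDfXB6m and B6fXPWDm overlapped. The ratio of the used share of all knockout sites, PWDfXB6m over B6fXPWDm, was 3.58 with whole lists and 1.18 at this equal length. Whether the difference between whole lists comes from the depth of the libraries was not tested.

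The centres coincided more closely at strong sites. The hybrid centre lay a median of 103 bp from the knockout centre at the 714 used sites of the strongest 10%, and 188 bp at the other 279 used sites. Counted per 100 bp of distance, the nearest hybrid centre fell within the first 100 bp of 342 strong sites, within the next 100 bp of 217, then 108 and 47. The following 100 bp, outside the match, held 35. At the other knockout sites the 4 counts inside the match were 74, 76, 65 and 64, and the next was 55. The strong sites thus peaked at the shortest distances, while at the others the counts on either side of 400 bp were close to each other.

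**Figure D2:**
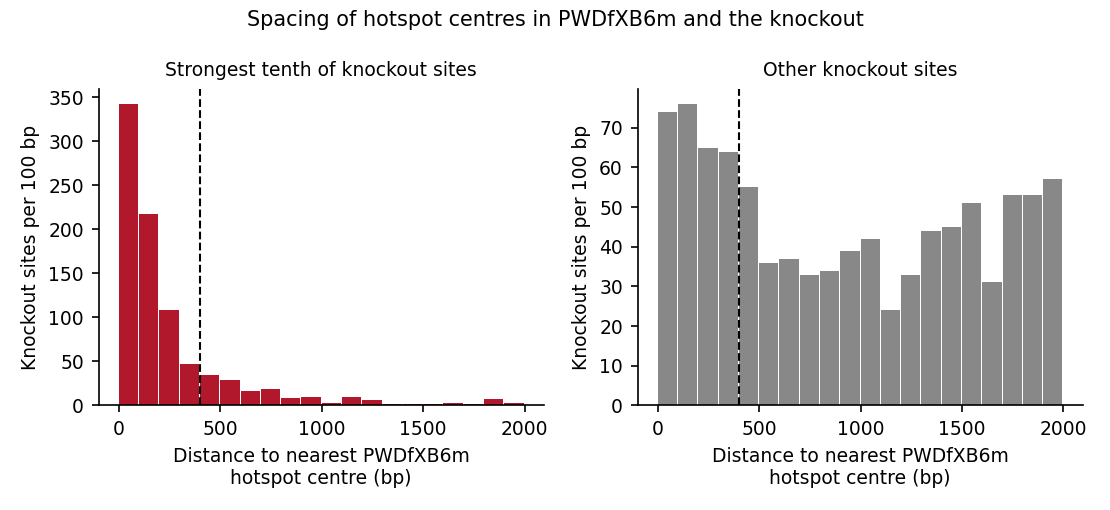
Knockout sites per 100 bp of distance from their centre to the nearest PWDfXB6m hotspot centre (bp), for the strongest 10% of knockout sites (left) and the others (right), with separate vertical scales. The dashed line marks 400 bp. The left counts drop through 342, 217, 108 and 47 inside the line, and the right counts are 74, 76, 65 and 64.

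Sites just inside and just outside the match show how the threshold works. A knockout site in Slc39a11 and one at the start of Kctd6 had hybrid centres 399 bp away and were counted. A site in Dlgap1 at 400 bp and one in Dusp26 at 401 bp were not.

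Used sites were weak in the hybrid and strong in the knockout. In the hybrid list the hotspots at knockout sites had a median percentile of strength, with 100 the strongest, of 13.4 (quartiles 5.22 and 29.4), against 52.4 for hotspots elsewhere. In the knockout list the used sites had a median percentile of 96.2, against 48.7 for sites not used. Of the 993, 623 (62.7%) were in the weakest 20% of the hybrid list. At the 714 strong sites the hybrid median was 11.3 and 505 (70.7%) were in the weakest 20%. Counted the other way, knockout sites lay under 404 of the 1674 hotspots in the weakest 10% of the hybrid list (24.1%), under 13.1% in the next 10%, and under 22 of 1676 in the strongest (1.31%). All 993 together held 2.04% of the summed strength of the hybrid list. A low percentile at knockout sites was not particular to PWDfXB6m. The median was 13.6 in B6fXPWDm (50.7 for its hotspots elsewhere) and 14.8 in PWDfXC3Hm (50.6 elsewhere). In the parents it was 21.99 in PWD (50.5 elsewhere) and 18.2 in B6 (50.4 elsewhere).

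The rank order within the shared sites depended on which sites were taken. Spearman's rho between hybrid and knockout strength was 0.291 over the 714 strong sites and -0.478 over the other 279. Over all 993 it was -0.126, and 0.0407 when only centres under 200 bp apart were matched. These sites come from 1 pair of libraries and the values describe that pair. The interval called in the hybrid was also narrower at knockout sites, with a median of 1532 bp, against 2094 bp for hybrid hotspots elsewhere. In the knockout list the used sites were wider, with a median of 3684 bp, against 2056 bp for sites not used.

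**Figure D3:**
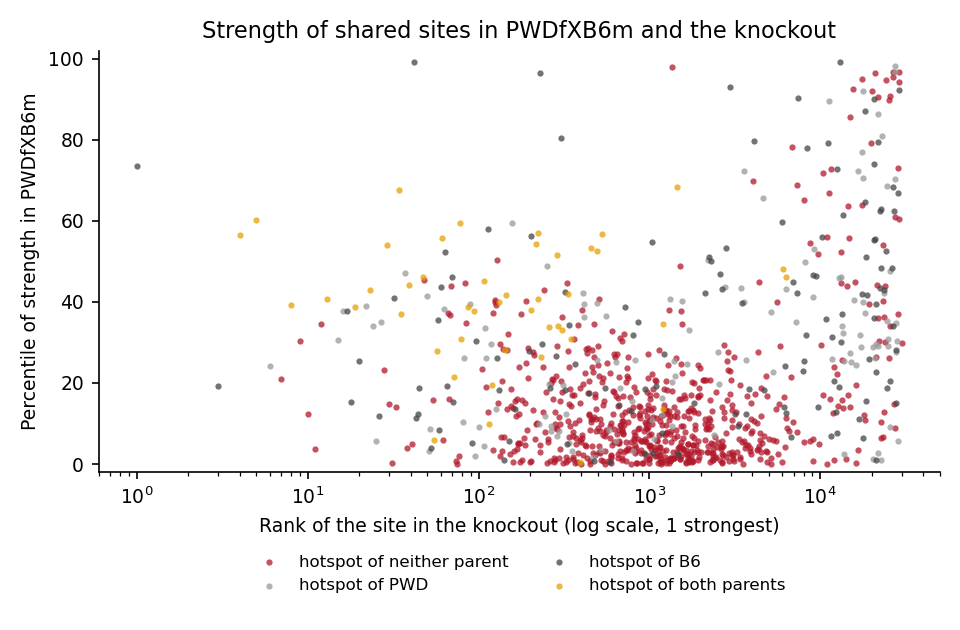
The 993 shared sites by rank in the knockout (log axis, 1 strongest) and percentile of strength in PWDfXB6m (100 strongest), with colour for the parent whose hotspot lies under 400 bp from the hybrid centre. Sites of neither parent crowd at the lower edge, with a median percentile of 9.57, and sites of both parents lie higher, with a median of 40.7.

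Most shared sites were hotspots of neither parent. Of the 993, 122 (12.3%) lay at a PWD hotspot only, 134 (13.5%) at a B6 hotspot only, 45 (4.53%) at a hotspot of both and 692 (69.7%) at neither. Among the 714 strong sites, 540 (75.6%) were of neither parent, of which 2 were in the stronger 50% of the hybrid list. The median hybrid percentile was 29.0 at PWD hotspots, 30.9 at B6 hotspots, 40.7 at hotspots of both and 9.57 at hotspots of neither. Seen over the hybrid list, 692 of the 5350 hotspots of neither parent (12.9%) lay at a knockout site, against 301 of the 11409 parental ones (2.64%). In the weakest 10% of the hybrid list, 356 of the 774 hotspots of neither parent (46.0%) did so.

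Few strong knockout sites used in a reference cross were missed by the hybrid. Of the 134 strong sites used in B6fXPWDm, 129 (96.3%) were used in PWDfXB6m, and these were 18.1% of the 714. Of the 185 used in PWDfXC3Hm, 173 (93.5%) were used in PWDfXB6m, or 24.2% of the 714. The parents gave 104 of 118 for PWD and 98 of 112 for B6. In turn 489 of the 714 (68.5%) were in neither reference cross and 77 (10.8%) were in both. These shares are read against use over all 2999 strong sites, 23.8% in PWDfXB6m, 4.47% in B6fXPWDm and 6.17% in PWDfXC3Hm. Use was higher at the top ranks in each, with 80, 36 and 39 of the 100 strongest sites in the same order. All these counts share the knockout list, and each pair of crosses shares a parent strain.

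Hybrid hotspots at knockout sites lay at gene starts far more often than its other hotspots, a contrast largely set by the match. Their centres must lie under 400 bp from a knockout site, so their position follows that of the used knockout sites, 50.5% of them at gene starts. A start is the transcription start of a protein-coding gene whose strand the reference gives, and a site is at it when its centre is within 1000 bp. Of the 993 hybrid hotspots at knockout sites 50.6% were at a gene start (interval 47.4 to 53.7), against 1.48% of the 15766 elsewhere (1.3 to 1.68). A further 14.1% at knockout sites and 0.818% elsewhere were at an end of a gene without a given strand. Inside genes, away from their ends, were 18.8% at knockout sites and 51.1% elsewhere, and between genes 15.8% at knockout sites and 45.0% elsewhere. Hybrid hotspots of neither parent that were not at a knockout site stood at 2.68% at gene starts.

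Used sites had the higher share of gene starts over the whole knockout list, but not within the strongest 10%. Over all knockout sites, 50.5% of used and 27.7% of unused sites were at a gene start. Within the strongest 10% the values were 61.8% of used sites (interval 58.1 to 65.3) and 63.3% of unused sites (61.3 to 65.3). The used sites were the stronger even there, with a median knockout rank of 657.5, against 1756 for the unused. Over ranks 1 to 1000, gene starts held 63.3% of used and 65.9% of unused sites, and over the weaker ranks of the strongest 10% they held 59.1% of used and 62.5% of unused sites. Counting only the 2 outer ends of each gene's span leaves out gene starts away from them, so it is not the sum of the classes above. Within 1000 bp of such an end were 72.4% of used and 69.4% of unused strong sites. That difference, 3.04 percentage points, depended on the processing. It was 6.39 without the widest intervals and 5.27 without parental sites, and -1.80 with the hybrid list held to its strongest 12918 hotspots. Strong sites between genes were 8.12% of those used (6.23 to 10.4) and 11.6% of those not used (10.3 to 12.9). By class, the hybrid used 23.4% of strong sites at gene starts, 28.7% of those at an end of a gene without strand, 25.9% of those inside genes and 18% of those between genes. Among the weaker sites 27.6% of used and 28.9% of unused ones were near an outer gene end.

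**Figure D4:**
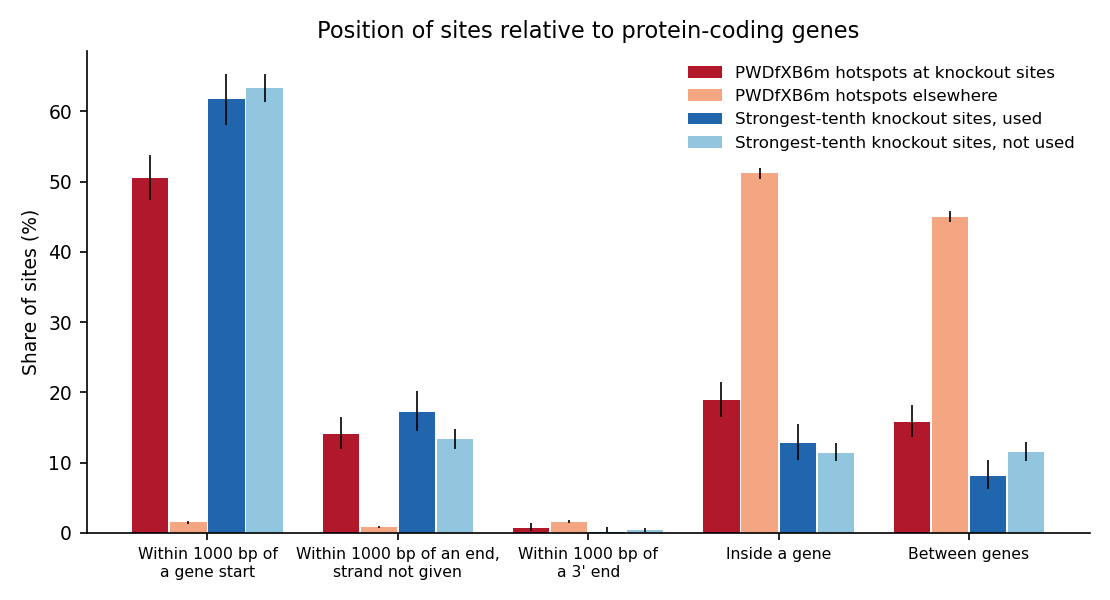
Share of sites (%) by position to protein-coding genes for PWDfXB6m hotspots at knockout sites and elsewhere, and for used and unused knockout sites of the strongest 10%. Bars start at 0 and black lines are exact 95% intervals. Gene starts held 50.6% of hybrid hotspots at knockout sites and 1.48% of those elsewhere, a contrast largely set by the match. Used and unused strong knockout sites stood at 61.8% and 63.3%.

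At gene starts the centres lay slightly inside the gene, and since a match requires centres under 400 bp apart, the hybrid position is not independent of that in the knockout. At 373 strong used sites with a single gene start, the hybrid centre lay a median of 250 bp downstream of the start and the knockout centre 211 bp. The centre was downstream of the start at 85.5% of them in the hybrid and at 86.1% in the knockout. At 1270 unused strong sites of this kind the knockout centre lay a median of 189 bp downstream. Gene starts facing another start on the opposite strand within 1000 bp were used at 26.4% of 239 strong sites, and single starts at 22.9% of 1648.

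Promoter sequence likewise differed little between used and unused strong sites. The 441 promoters at used strong sites and the 1446 at unused ones both had a median of 25 CpGs in 300 bases, where all 20085 promoters had 14. The median G+C was 63.3% at used and 64.3% at unused sites, and 57.0% over all promoters. The Sp1 box GGGCGG, searched on both strands, was in 73.0% of used, 74.6% of unused and 47.0% of all promoters. The TATA box TATAAA was in 4.08% of used, 4.01% of unused and 12.7% of all. The CCAAT box was in 42.4% of used, 39.4% of unused and 38.1% of all. The Sp1 box contains a CG step that is also counted as a CpG, and a box can overlap another.

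The share of strong sites that the hybrid used differed several-fold between chromosomes. It was highest on chromosome 19, with 43 of 89 sites (48.3%, interval 37.6 to 59.2), and reached 44.3% on chromosome 18, 43.2% on chromosome 10 and 41.4% on chromosome 5. It was lowest on chromosome 8, with 11 of 142 (7.75%, interval 3.93 to 13.4), and was 9.33% on chromosome 9 and 9.54% on chromosome 1. The intervals of 7 chromosomes lay wholly above the 23.8% of all autosomes and those of 7 others wholly below it. With whole lists PWDfXB6m was above both reference crosses on all 19 chromosomes. With all lists held to 12918 hotspots it was above B6fXPWDm on 12, equal on 2 and below on 5, and above PWDfXC3Hm on 17, equal on 1 and below on 1.

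Several measures ran alongside this order over the 19 chromosomes, which are points from 1 library. Spearman's rho of the used share was -0.509 with the span of the chromosome and 0.725 with the hybrid's own hotspots per Mb. The hotspots per Mb differed less than the used share, 9.57 on chromosome 19 and 6.4 on chromosome 8. The same coefficient was 0.268 with the median knockout score of the strong sites. With the hybrid list held to its strongest 12918 hotspots the shares lay between 0.704% on chromosome 8 and 16.4% on chromosome 18, with a rho of 0.977 to those of the whole list. Chromosome 19 was then at 12.4%, below chromosome 18. Both reference crosses share the knockout list with the hybrid. B6fXPWDm used 10.1% of the strong sites on chromosome 19, 13.6% on chromosome 18 and 2.11% on chromosome 8. PWDfXC3Hm used 2.25% on chromosome 19, 20.7% on chromosome 18 and 2.11% on chromosome 8.

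**Figure D5:**
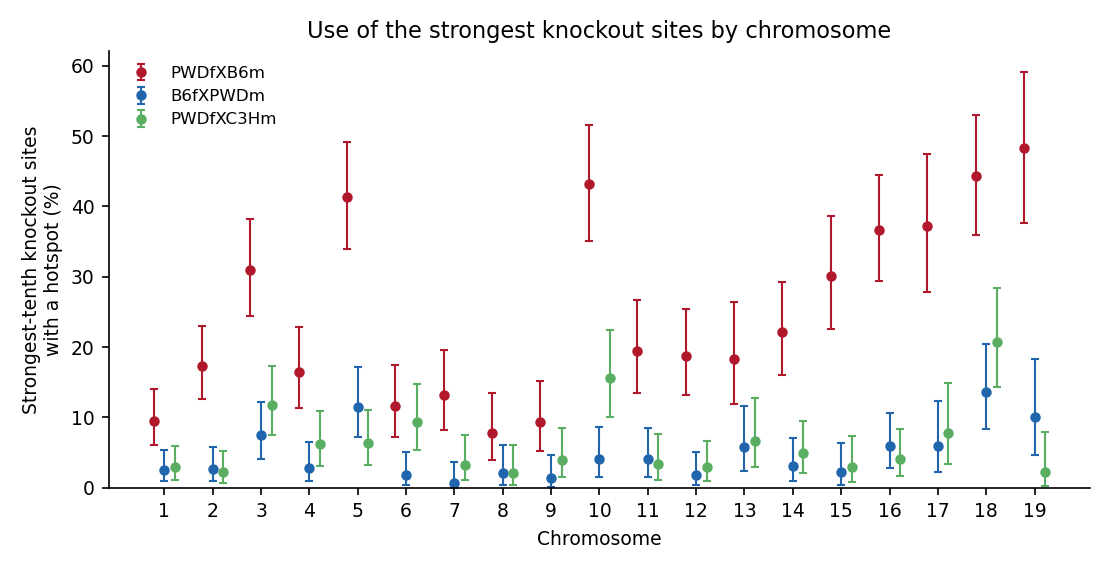
Share of the strongest 10% of knockout sites with a hotspot under 400 bp away (%), by chromosome, in PWDfXB6m, B6fXPWDm and PWDfXC3Hm, with exact 95% intervals. With whole lists PWDfXB6m is the highest of the crosses on every chromosome, between 7.75% on chromosome 8 and 48.3% on chromosome 19, and at equal list length it is above B6fXPWDm on 12 of the 19.

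The 12 strongest used sites carried knockout ranks 1 and 3 to 13. Percentiles place a site within its own list, and because the lists differ in length and depth they give no order between lists. The strongest of all lay inside Muc3, a membrane mucin gene, at chr5:137151908-137154803. Its hybrid hotspot, 32 bp away, had percentile 73.5, and it was also a hotspot of B6fXPWDm (percentile 71.7) and B6 (43.1) but not of PWDfXC3Hm or PWD. The site of rank 3 lay inside Zkscan16, a zinc-finger gene, with percentile 19.3 in the hybrid and 7.01 in B6 and no hotspot in the other lists. Both were thus in the hybrid and in its father's strain.

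The site of rank 4 lay at chr5:20949065-20953404, centred 588 bp downstream of the start of Rsbn1l, a paralogue of the round spermatid basic protein gene. Its percentile was 56.6 in PWDfXB6m, 14.9 in B6fXPWDm, 44.1 in PWD and 15.1 in B6, and PWDfXC3Hm had no hotspot within the match. The site of rank 5, inside St7, was in all lists, with percentile 60.1 in PWDfXB6m, 51.3 in B6fXPWDm, 52.5 in PWDfXC3Hm, 36.6 in PWD and 32.9 in B6. These 2 sites were the highest in the hybrid among the 12 after Muc3. At rank 6 the start of Snx13, a sorting nexin, had percentile 24.2 in PWDfXB6m and 0.178 in PWD, with none in the other lists.

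Of the 12, 5 were hotspots of neither parent. The start of Cenpl, which encodes a kinetochore-associated centromere protein, had hybrid percentile 21.0 and knockout rank 7, with no hotspot within the match in either reference cross. The start of Kbtbd8, an adaptor of a ubiquitin ligase, had hybrid percentile 12.4 and knockout rank 10, again with none in the reference crosses. Slc35d1, a nucleotide-sugar transporter of the endoplasmic reticulum, had hybrid percentile 3.68 and knockout rank 11 at its start. Fndc3a, needed in mice for spermatids to stay attached to Sertoli cells, had hybrid percentile 34.5 and knockout rank 12 near an end. The site of rank 9, between genes and 16411 bp from an end of the chromatin remodeller gene Chd2, had percentile 30.3 in PWDfXB6m and 13.7 in PWDfXC3Hm. The other 4 of these had no hotspot in either reference cross.

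Strong sites in all crosses included further gene starts. Nudcd2, which faces another start on the opposite strand, had percentile 39.4 in PWDfXB6m, 5.58 in B6fXPWDm and 9.32 in PWDfXC3Hm, and rank 8 in the knockout. Sec62, for protein import into the endoplasmic reticulum, had percentile 40.7 in PWDfXB6m, 0.422 in B6fXPWDm and 2.71 in PWDfXC3Hm, and rank 13 in the knockout. Acbd5, an acyl-CoA binding protein gene, had percentile 37.7 in PWDfXB6m, 3.72 in B6fXPWDm and 2.38 in PWDfXC3Hm, and rank 17 in the knockout. The site inside Poli, for a translesion DNA polymerase, had percentile 15.2 in PWDfXB6m, 0.511 in B6fXPWDm and 7.55 in PWDfXC3Hm, and rank 18 in the knockout. Its rank was 14210 in PWDfXB6m and 12853 in the shorter list of B6fXPWDm.

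The 8 shared sites strongest in the hybrid ranged widely in knockout rank. The strongest, inside Plekha5 at chr6:140588124-140594541, had hybrid rank 122 (percentile 99.3) and knockout rank 42, and its percentile was 97.7 in B6fXPWDm, 99.8 in PWDfXC3Hm and 99.5 in B6. Klhdc4, with hybrid rank 593 and knockout rank 230, was also a strong B6 hotspot (91.0). Tle1, a co-repressor gene, had hybrid rank 342 and knockout rank 1360, and was a hotspot of neither parent but strong in B6fXPWDm (97.9) and PWDfXC3Hm (96.5). The other 5, inside Nrg1 and Top1, and between genes nearest to Tmem182, Lin7c and Snx13, had knockout ranks of 13015 to 28908. None of the 8 lay at a gene start.

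Strong knockout sites that the hybrid did not use included sites inside genes and at gene starts. The strongest, rank 2, lay inside Enpp6, a choline phosphodiesterase gene of oligodendrocytes, and its nearest hybrid centre was 41126 bp away. Tmf1 (rank 36, a Golgi protein) had its nearest hybrid centre at 78041 bp from a site at the gene start. Near misses were Rims2 (rank 21) at 790 bp and Fn1 (rank 40, fibronectin) at 512 bp, both of which would be reached by a wider match. Itsn2 (rank 46, an endocytic scaffold) had its nearest hybrid centre at 2369 bp.

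Gene groups were described by whether a knockout site lay within 1000 bp of an end of each gene. Over all 20665 autosomal protein-coding genes, 10672 (51.6%) had a knockout site there and 699 (3.38%, or 6.55% of those with a knockout site) had one that PWDfXB6m used. Of the 2455 genes with a strong site, 615 (25.1%) had a used one. These are the shares against which each group is read.

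Most genes of meiotic prophase had knockout sites. Of 53, 44 had a knockout site and 5 a used one (9.43% of the 53, against 3.38% of all genes), and 3 of the 15 with a strong site had it used (20%, against 25.1% overall). Mybl1, the A-MYB transcription factor of pachytene spermatocytes, had hybrid percentile 37.7 and knockout rank 16. Syce1, of the central element of the synaptonemal complex, had percentile 11.7 and knockout rank 295, and Terb1, which attaches telomeres to the nuclear envelope, percentile 14.8 and rank 340. The crossover genes Hfm1 and Prr19 had weaker knockout sites, of ranks 3041 and 8711. Strong sites unused in the hybrid included those at Rad21l, Mei4, Syce2, Rnf212, Sycp1 and Ankrd31, with ranks 626 to 1971.

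Of 48 genes of double-strand break repair, 44 had a knockout site and 2 a used one, which were 2 of the 16 with a strong site (12.5%). The used ones were Rpa3, a subunit of the single-strand binding complex, of hybrid percentile 5.92 and knockout rank 55, and Nbn, of the complex that senses and trims break ends, of percentile 2.12 and rank 1013. Strong unused sites included Rad51b, Gen1, Atm, Bard1 and Fancm, with ranks 214 to 387.

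Of 21 marker genes of spermatogonia, 15 had a knockout site and 3 a used one (14.3% of the 21, against 3.38% of all genes). These were 3 of the 6 with a strong site (50%, interval 11.8 to 88.2, against 25.1% over all genes), a share resting on few genes. The 3 were the germ-cell RNA helicase Ddx4, the RNA-binding protein Dazl and the transcription factor Dmrt1. Their hybrid percentiles were 6.11, 9.34 and 5.75. The unused strong sites were at Sohlh2, Stra8 and Etv5, with ranks 495 to 1891. Few markers of other cell types had a knockout site. Knockout sites were found at 11 of 35 spermatid genes, 7 of 19 Sertoli cell genes and 1 of 9 Leydig cell genes, with 0 used in each. Olfactory receptor genes had knockout sites at 26 of 1104 and vomeronasal receptor genes at 3 of 352, also with 0 used. Of all these genes 2, both of spermatids, had a strong site, and against 6.55% over all genes with a knockout site these counts of 0 are no contrast.

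Housekeeping groups ranged around the overall 25.1%. Among the 14 ribosomal protein genes with a strong site, 4 had a used one (28.6%), led by the testis-expressed Rpl10l at knockout rank 998. Proteasome genes had 3 of 11 (27.3%), led by Psma8, the subunit of the spermatoproteasome, at hybrid percentile 0.591 and knockout rank 174. Splicing factors had 3 of 10 (30.0%), among them Sf3b5 at hybrid percentile 52.4 and knockout rank 64. Cytosolic tRNA synthetases had 1 of 4, namely Kars at knockout rank 110. Replication-dependent histone genes had 3 of 5 (60.0%), from H4c11 and a site shared by H2bc1 and H2ac1. The unused H2ac11 and H2bc11 also share a site. With 4 to 14 genes in each denominator, these shares rest on few genes.

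Zinc-finger genes of the Zfp series had 24 of 386 used and 19 of the 54 with a strong site (35.2%). Of the 19, 10 were on chromosome 17, which as a whole had 37.3% of its strong sites used. Zfp157 had hybrid percentile 15.8 and knockout rank 179, and Zfp81 percentile 40.1 and rank 189. Zfp189 had percentile 2.18 and rank 407, and Zfp715 percentile 26.3 and rank 630. Zfp944 and Zfp758 share a site, as do Zfp942 and Zfp943, so these genes are not independent.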

How the data were processed

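Each file is a list of hotspots of 1 library with a chromosome, start, end and strength score as deposited by the authors. The submitters' processing notes name mm10 as the build and list CASAVA 1.8 and MACS2 2.0.10, with no role stated. The sources used here do not say how the deposited score was normalized, how deep the libraries were or which filters were applied, and 8 knockout scores are negative. The score served only as a rank, percentile or share of the summed score within a list.

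Centres were compared with Python 3.11.15, numpy 2.4.6, pandas 2.3.3 and scipy 1.17.1. The matching was also run on simulated sites placed inside or outside the 400 bp limit. Their recovery was fixed by that placing, so it checks the code only and says nothing about matches in these data. Starts were read as counted from 0 and are printed counted from 1. Genes came from a RefSeq table of GRCm38.p6, whose primary assembly equals mm10. Of 20665 autosomal protein-coding genes, 16457 had a strand and starts from a RefSeq promoter table, and 4208 did not. A site is named by the gene that holds its centre or else by the nearest gene end. Named were the 12 strongest used sites, the 8 strongest in the hybrid, the 6 strongest not used, the 5 strongest of neither parent and the 5 strongest in all 3 crosses, the pairs on either side of 400 bp and up to 4 used sites of each of 14 gene lists. Of the 6 strongest not used, 1 is not reported here. Further gene list members, used or not, were named after their values were seen. The sites, lists and alternatives were chosen with earlier results of these data known.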

Additional observations from a re-analysis of the deposited data

How the results depend on the processing

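Each genotype had 1 library, so leaving out a replicate was not possible. No paired analysis was possible because no genotype has a second library. Values that moved beyond their counting interval are given here, with matching by centre distance, any interval overlap or 50% reciprocal overlap, lists trimmed to the strongest 50% or 10000 hotspots or to the equal length of 12918, parental sites left out, or the widest 5% left out. For shares this interval was the exact one. For ratios and differences it took the value compared against as fixed, and so left out part of the counting error. For medians it came from the ordered values, and for rho from Fisher's transformation. Equal lengths, and all settings for the strongest 10% of sites, were added after seeing the data. The used share of knockout sites, 3.31% as reported, was 2.36% with under 200 bp, 4.18% with under 800 bp, 6.55% with any overlap, 1.74% with reciprocal overlap and 0.373% with the strongest 50%. Further values were 0.820% with the strongest 10000, 2.46% with no parental sites, 2.64% with no wide intervals and 1.09% with equal lengths. For the strongest 10% of sites it was 23.8% as reported and 18.6% with under 200 bp, 27.1% with under 800 bp, 30.2% with any overlap, 7.37% with reciprocal overlap and 1.60% with the strongest 50%. Other settings gave 4.40% with the strongest 10000, 19.2% with no parental sites, 18.3% with no wide intervals and 5.80% with equal lengths. The share of hybrid hotspots at knockout sites, 5.93% as reported, was 4.23% with under 200 bp, 7.52% with under 800 bp, 11.8% with any overlap, 3.11% with reciprocal overlap and 0.668% with the strongest 50%. The remaining settings gave 0.820% with the strongest 10000, 4.33% with no parental sites, 4.73% with no wide intervals and 2.54% with equal lengths. The ratio of used shares to B6fXPWDm, 3.58 as reported, was 4.22 with under 200 bp, 2.93 with under 800 bp, 2.16 with any overlap and 2.01 with reciprocal overlap. Further values were 2.55 with the strongest 50%, 1.86 with the strongest 10000, 5.99 with no parental sites and 1.18 with equal lengths. Against PWDfXC3Hm the ratio, 2.97 as reported, was 3.44 with under 200 bp, 2.42 with under 800 bp, 1.65 with any overlap and 1.76 with reciprocal overlap. Other settings gave 1.93 with the strongest 50%, 2.48 with the strongest 10000, 3.84 with no parental sites and 2.08 with equal lengths. The median knockout percentile of used minus unused sites, 47.4 as reported, was 47.9 with under 200 bp, 46.7 with under 800 bp, 38.8 with any overlap and 31.5 with reciprocal overlap. The remaining settings gave 30.8 with the strongest 50%, 45.5 with the strongest 10000 and 42.2 with equal lengths. The median hybrid percentile at knockout sites minus elsewhere, -39.0 as reported, was -26.2 with any overlap, -11.1 with reciprocal overlap, -30.2 with the strongest 50% and -33.7 with the strongest 10000. Further values were -41.9 with no parental sites, -37.7 with no wide intervals and -29.0 with equal lengths. Spearman's rho of strength over shared sites, -0.126 as reported, was 0.0407 with under 200 bp, -0.278 with under 800 bp and -0.470 with any overlap. Other settings gave -0.204 with the strongest 50%, -0.223 with no wide intervals and -0.275 with equal lengths. The share of sites near a gene end, used minus unused, 27.8 percentage points as reported, was 31.1 with under 200 bp, 24.3 with under 800 bp, 18.4 with any overlap, 8.46 with reciprocal overlap and -7.99 with the strongest 50%. The remaining settings gave 2.47 with the strongest 10000, 33.1 with no parental sites, 12.3 with equal lengths and 24.5 with a gene window of 500 bp. Within the strongest 10% that difference, 3.04 as reported, was -3.86 with reciprocal overlap, -13.9 with the strongest 50%, -6.16 with the strongest 10000, 6.39 with no wide intervals and -1.80 with equal lengths. Mutual nearest centres and leaving out scores of 0 or less moved no value beyond its interval. The direction turned for rho with matching under 200 bp and for the gene-end difference in the strongest 50%, and the cause was not tested. Within the strongest 10% that difference was also below 0 with reciprocal overlap and all 3 trimmed lists. Depth is unknown, so the weak end of each list limits every count here.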

Other observations

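Strong knockout sites near the centromeric end of the chromosomes were used more often. In the first 20 Mb of the 19 autosomes, PWDfXB6m used 184 of 468 strong sites (39.3%, interval 34.9 to 43.9), against 530 of 2531 further along (20.9%, interval 19.4 to 22.6). The share was higher in the first 20 Mb on 14 of the 19 chromosomes, and lower on chromosomes 11, 12, 13, 16 and 17. On chromosome 18 it was 77.4% there and 34.9% in the rest, and on chromosome 17 it was 15.0% there and 42.7% in the rest. Both reference crosses, which share the knockout list, also had higher shares in the first 20 Mb, with 11.3% there and 3.20% in the rest for B6fXPWDm, and 11.3% there and 5.22% in the rest for PWDfXC3Hm. Mouse autosomes have their centromere at the start of the coordinates. This division was chosen after its values were seen.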
